A study of Mus musculus with 31 samples.

Results

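Endoglin (Eng), the type I receptor ALK1 (Acvrl1) and 8 further genes of the bone morphogenetic protein (BMP) pathway were followed across an allelic series of Etv2 in the mouse yolk sac at embryonic day 8.5. The 10 genes were taken by symbol from a table of 18477 genes, and all 10 were in it. They are the ligands Bmp4 and Bmp2, the extracellular modulator Bmper, the receptors Eng and Acvrl1, the signal transducer Smad1, the inhibitory Smads Smad6 and Smad7, and the target genes Id1 and Id3. They were picked with earlier results of these libraries known, in which Eng was high in the compound heterozygote and nearly absent from the null. Their levels in those genotypes are therefore given as a description, with no test, and only the milder genotypes were tested. The same wild-type libraries are the reference there, so these tests are not fully independent of that choice.

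BMP ligands bind a pair of type I and type II receptor kinases, which phosphorylate Smad1, Smad5 and Smad9. The phosphorylated Smads enter the nucleus with Smad4 and switch on targets such as the Id genes, whose products block basic helix-loop-helix factors, and Smad6 and Smad7, which feed back on the receptors. Endothelial cells carry a version of this pathway in which ALK1 is the type I receptor and endoglin the co-receptor, and mice that lack either gene die in mid-gestation with defective yolk sac vessels. Etv2 is an ETS-family transcription factor at the head of endothelial and blood development, and ETS proteins bind DNA around the core GGAA.

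RNA was sequenced from single yolk sacs of 31 somite-matched embryos of both sexes on a mixed background. The groups were Etv2 +/+ (n = 6), +/enhΔ (n = 4), +/Δ (n = 6), enhΔ/enhΔ (n = 5), the compound heterozygote enhΔ/Δ (n = 5) and the null Δ/Δ (n = 5), and the design asks how expression follows the dose of Etv2. The Δ allele lacks the exons for the DNA-binding domain. It was made from a floxed allele with a Mef2c-AHF-Cre transgene acting in the female germline, so that every cell of the offspring carries the deletion. The enhΔ allele lacks an upstream enhancer of Etv2, deleted by CRISPR-Cas9 in zygotes and kept as 2 founder lines. The mice compared came from matings of +/enhΔ and +/Δ parents, and a whole yolk sac holds visceral endoderm, mesoderm, endothelium and blood together.

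The libraries held 2671612 to 22396340 reads in genes (median 13894962), so that 1 read was worth 0.0440 to 0.378 CPM (read counts scaled to a common library size with the authors' factors). Etv2 itself gave 0 to 56 reads per library, and reads of the whole gene do not tell the deleted exons from the rest, so they do not show the deletion itself. Sums over libraries were 10 reads in +/+, 4 in +/enhΔ, 120 in +/Δ, 8 in enhΔ/enhΔ, 92 in enhΔ/Δ and 84 in Δ/Δ. Every group with a Δ allele thus held more Etv2 reads than any group without it, and the sums did not follow the dose of Etv2. The cause was not tested. The erythroid markers did follow the series, with summed levels of 1340 to 5116 CPM in +/+, 394 to 2200 CPM in enhΔ/Δ and 7.88 to 63.4 CPM in Δ/Δ. In 4 of the 11 libraries labelled male (Δ/Δ replicates 1 and 2, +/Δ replicates 2 and 3), Xist stood at 434 to 645 CPM and Y-linked genes summed to at most 0.258 CPM, against the label. The pseudogene Ftl2-ps stood at 36.5 to 50.2 CPM in 8 libraries (5 of 6 +/+ and 3 of 4 +/enhΔ) and at no more than 0.515 CPM in the other 23, so this difference between libraries runs with genotype and, for the groups with no high library, cannot be told apart from it.

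The 250 bases before the start site of Eng, from RefSeq on GRCm38.p6 at chr2:32646345-32646594 on the plus strand, are shown because Eng is the gene of the set whose level varied most across the series. The same stretch of Id3 (chr4:136143572-136143821, plus strand) is shown as a promoter with as many ETS cores but a flat level, and that of Smad6 (chr9:64022060-64022309, minus strand) as the one with the fewest among the 6 promoters of the set that were matched. Each is written 5′ to 3′, and the capitals mark the core GGAA, on either strand.
Eng: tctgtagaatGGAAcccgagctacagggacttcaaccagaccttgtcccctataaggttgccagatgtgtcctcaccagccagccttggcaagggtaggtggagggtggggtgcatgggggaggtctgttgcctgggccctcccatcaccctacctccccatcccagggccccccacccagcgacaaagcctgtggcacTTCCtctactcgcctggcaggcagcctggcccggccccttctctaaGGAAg
Id3: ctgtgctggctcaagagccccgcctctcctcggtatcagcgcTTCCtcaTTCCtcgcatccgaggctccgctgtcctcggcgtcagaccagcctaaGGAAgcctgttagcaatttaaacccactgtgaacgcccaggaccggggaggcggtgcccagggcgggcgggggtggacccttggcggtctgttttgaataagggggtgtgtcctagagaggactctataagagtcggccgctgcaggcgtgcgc
Smad6: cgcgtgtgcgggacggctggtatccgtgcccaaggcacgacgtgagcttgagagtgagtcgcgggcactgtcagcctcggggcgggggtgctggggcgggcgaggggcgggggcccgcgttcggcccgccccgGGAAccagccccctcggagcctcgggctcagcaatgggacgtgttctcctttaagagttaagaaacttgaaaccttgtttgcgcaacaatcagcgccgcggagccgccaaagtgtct

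The Eng promoter held 3 cores, the last of them 5 to 2 bases before the start site, the middle one 51 to 48 bases and the first 240 to 237 bases before it. The last and the middle core both stood within the longer sequence AGGAAG. Id3 also had 3 cores, 2 of them within AGGAAG, and Smad6 had 1 core. RefSeq sequences were matched for 6 of the 10 genes, with 3 cores in Bmp4 and in Smad1 and 4 in Bmper. For GGAA these numbers are ordinary: over 27025 mouse promoters of the same length, 93.4% held it on at least 1 strand, with a median of 3 matches. At least 1 AGGAAG was held by 29.2% of them, and the share with 2 was not counted. The motif CCGGAA, an ETS core with CC before it, was found once, in the Bmp4 promoter, against 12.2% of all promoters. The Smad motif GGCGCC was found in none of the 6 (9.54% of all promoters), nor was the palindromic Smad motif GTCTAGAC (0.174%). Both strands were searched. A match is a string of letters and not a bound site, and each longer motif contains a core already counted.

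Per kilobase of exon, Id1 (48.1 CPM per kb over the 31 libraries) and Id3 (44.4) were the most abundant of the set, followed by Bmp4 (20.4). Smad1 (8.76) and Bmp2 (7.84) came next, then Smad6 (3.92), Smad7 (3.43) and Eng (3.32). Acvrl1 stood at 1.34 CPM per kb, and Bmper at 0.116.

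**Figure D1:**
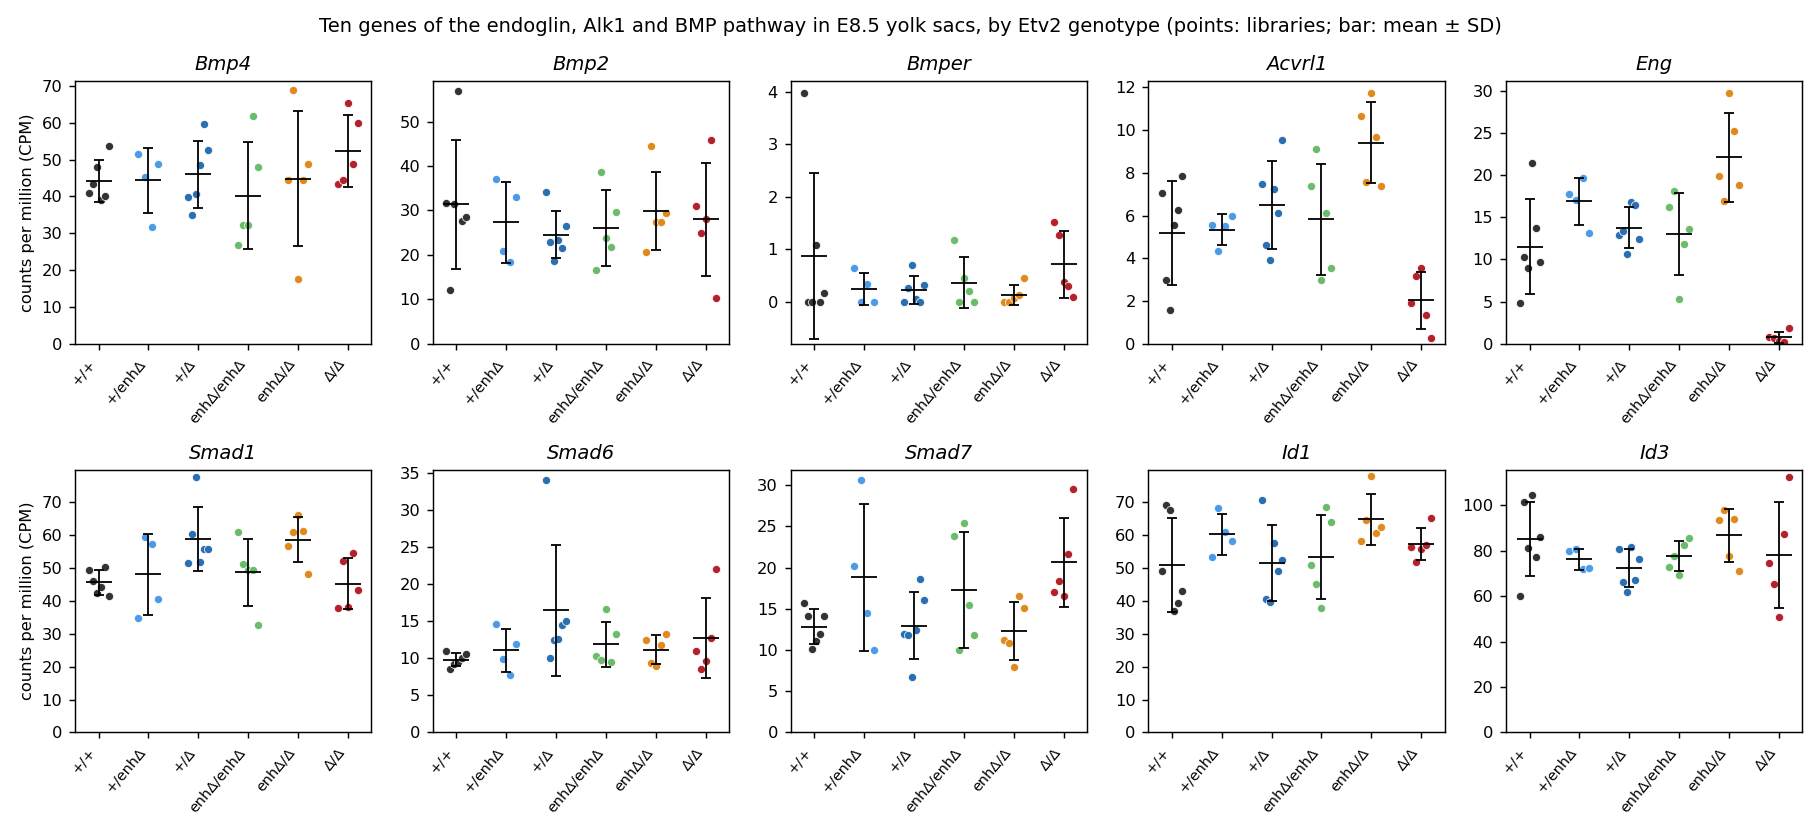
Levels of the 10 genes in every library. Each panel is 1 gene, the vertical axis is CPM (from 0, except for Bmper, whose SD reaches below it), each point is 1 yolk sac, and the bar with its whiskers is the mean ± SD of a genotype (n = 4 to 6). Eng lies between 0.206 and 1.83 CPM in Δ/Δ, below every library of the other genotypes, whereas for 8 of the 10 genes (all but Eng and Smad7) the Δ/Δ points overlap the range of +/+.

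Endoglin, the co-receptor, had the widest range of fitted differences in the set. In +/+ it was measured at 4.87, 10.2, 8.94, 21.4, 13.7 and 9.74 CPM (mean 11.5 ± 5.62, SD, n = 6). In enhΔ/Δ the 5 yolk sacs gave 19.9, 16.9, 29.7, 25.2 and 18.8 CPM (22.1 ± 5.24), and in Δ/Δ they gave 0.756, 0.704, 0.331, 0.206 and 1.83 CPM (0.765 ± 0.640). The null thus stood apart from every other library, while enhΔ/Δ lay high but was overlapped by 1 +/+ library at 21.4 CPM. A residue was left in the null: 47 reads over the 5 libraries, with at least 2 in each. A Poisson interval places them between 34.5 and 62.5 (counting error only). Of these reads, 21 came from replicate 5, where Y-linked genes summed to 7.05 CPM although Xist stood at 639 CPM. In the other libraries high in Xist, Y-linked genes reached at most 0.867 CPM. The erythroid sum of replicate 5 was 63.4 CPM, against 7.88 to 14.3 CPM in the rest of the null. The cause was not tested. Without replicate 5 the fitted log2 difference of Eng in Δ/Δ from +/+ was -2.95.

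The intermediate genotypes lay between. Eng stood at 17.7, 17.0, 19.7 and 13.1 CPM in +/enhΔ (16.9 ± 2.77, n = 4), at 12.9, 13.4, 10.6, 16.8, 16.5 and 12.4 CPM in +/Δ (13.8 ± 2.42, n = 6), and at 16.2, 18.1, 5.33, 11.9 and 13.6 CPM in enhΔ/enhΔ (13.0 ± 4.90, n = 5). By mean CPM the order was Δ/Δ, +/+, enhΔ/enhΔ, +/Δ, +/enhΔ and enhΔ/Δ. Neighbours in that order overlapped at every step except the first, from Δ/Δ to +/+, so the order of the 5 genotypes above the null is not set by these libraries.

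On the log2(CPM + 1) scale the fitted difference of Eng in enhΔ/Δ from +/+ was 1.00 (SE 0.29, 95% interval 0.41 to 1.59), a fold of 2.00. Leaving out 1 library at a time moved it from 0.81 (without +/+ replicate 1, the lowest +/+ library for Eng) to 1.18 (without +/+ replicate 4, the highest). Against +/Δ, which also carries 1 Δ allele, Eng in enhΔ/Δ was 0.64 higher (SE 0.29), with no overlap between the groups, although the nearest libraries were at 16.8 and 16.9 CPM. The null was 2.73 lower than +/+ (SE 0.30), 3.73 lower than enhΔ/Δ (SE 0.30) and stood at -3.09 against +/Δ (SE 0.29). The pseudocount of 1 compresses such low levels. With log2(CPM + 0.25) the same differences were -3.54, -4.61 and -3.94, and as mean CPM the null held 6.66% of the +/+ level and enhΔ/Δ 192%. These comparisons share the +/+, enhΔ/Δ and Δ/Δ libraries and are not separate pieces of evidence. In whole yolk sacs, fewer endothelial cells and less RNA per cell cannot be told apart.

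In the milder genotypes, where the set was tested, Eng did not pass. Its difference from +/+ was 0.66 in +/enhΔ (SE 0.31, 95% interval 0.02 to 1.29, unadjusted p = 0.0440, adjusted p = 0.999 by limma with Benjamini-Hochberg adjustment over all genes), 0.36 in +/Δ (interval -0.20 to 0.92, adjusted p = 0.957) and 0.19 in enhΔ/enhΔ (interval -0.39 to 0.78, adjusted p = 0.941). Over all alternatives the adjusted p of Eng ranged from 0.842 to 1 in +/enhΔ. With the Ftl2-ps level (high or low) added to the fit, the +/Δ difference became 0.81, that of enhΔ/Δ 1.45 and that of Δ/Δ -2.29. The 1 +/+ library that is low in Ftl2-ps, replicate 1, is also the +/+ library with the lowest Eng (4.87 CPM), and in +/enhΔ the 1 low library, replicate 1, had Eng at 17.7 CPM, within the range of the other 3. That term therefore rests on 2 low libraries, 1 in each of these genotypes. About 3.20% of the exonic bases of Eng (mm9, chr2:32502115-32538189, plus strand) are shared with Ak1 on the same strand and 1.58% with Fpgs on the opposite strand.

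ALK1, the type I receptor that works with endoglin, was lower in the null as well, but by less. Acvrl1 (chr15:100958953-100975767, plus strand) measured 7.04, 2.97, 1.57, 5.55, 6.24 and 7.83 CPM in +/+ (mean 5.20). It measured 10.7, 7.59, 11.7, 9.66 and 7.37 CPM in enhΔ/Δ (9.40 ± 1.90, n = 5) and 1.89, 3.17, 3.53, 1.34 and 0.261 CPM in Δ/Δ (2.04 ± 1.34, n = 5). The Δ/Δ libraries lay below all of enhΔ/Δ and of +/Δ (3.92 to 9.55 CPM) but overlapped +/+ through its libraries at 1.57 and 2.97 CPM, and enhΔ/Δ overlapped +/+ at 7.83 CPM.

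The fitted differences of Acvrl1 were 0.92 (SE 0.33) in enhΔ/Δ and -0.92 (SE 0.34) in Δ/Δ against +/+, -1.83 (SE 0.34) in Δ/Δ against enhΔ/Δ, and -1.31 in Δ/Δ against +/Δ. A single library decided much of the second value: it was -1.14 without +/+ replicate 3 and -0.49 without Δ/Δ replicate 5. With Ftl2-ps level in the fit the values against +/+ were 0.58 in enhΔ/Δ and -1.25 in Δ/Δ. As mean CPM, Acvrl1 stood at 181% of +/+ in enhΔ/Δ and at 39.2% in Δ/Δ. In the milder genotypes its levels were 4.33 to 5.99 CPM in +/enhΔ, 3.92 to 9.55 CPM in +/Δ and 2.96 to 9.13 CPM in enhΔ/enhΔ, and none passed the test (adjusted p = 0.999, 0.962 and 0.955 by limma).

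Set against each other per kilobase of exon, Eng exceeded Acvrl1 in 5 of 6 +/+ libraries and in all 20 libraries of +/enhΔ, +/Δ, enhΔ/enhΔ and enhΔ/Δ, with median ratios of 3.12, 3.73, 2.76, 2.18 and 2.79. In Δ/Δ it exceeded Acvrl1 in 1 of 5, with a median ratio of 0.245. The exception was Δ/Δ replicate 5, where Eng was at its highest for the null and Acvrl1 at its lowest.

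The endothelial markers place these values. Of the 15 markers listed, 12 fell in Δ/Δ against +/+ by the test, beside 1420 of all 18477 genes. The marker list was chosen with earlier results of these libraries known, so this count is a description. The summed level of all 15 was 141 to 189 CPM in Δ/Δ, compared with 373 to 508 CPM in +/+. Tek, Egfl7 and Sox17 did not pass (log2 differences of -0.24, 0.15 and 0.05). With means of 104, 9.22 and 12.5 CPM in Δ/Δ, they made up most of the sum left there (mean 165 CPM). As a share of the +/+ mean, 10 of the 15 markers were below 10% in Δ/Δ, with a median of 5.56%: Cdh5, the cadherin of endothelial junctions, was at 2.26%, Cldn5 at 1.39%, Tie1 at 6.38% and Pecam1 at 8.02%. Eng at 6.66% lay among these. Acvrl1 at 39.2% lay above them and nearer to Sox7 (53.6%) and Kdr (21.1%). At least 1 Δ/Δ library had 0 reads for 8 of the 15 markers. The part of cell number in the Eng and Acvrl1 values was not tested.

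In enhΔ/Δ the endothelial sum was 609 to 651 CPM, above all +/+ libraries, and 12 of the 15 markers had means above 100% of +/+, with a median of 134%. By the test only Kdr, a receptor for VEGF, was called (log2 difference 0.62, adjusted p = 0.0265, limma). Esam (197%) and Robo4 (192%) stood at shares like those of Eng (192%) and Acvrl1 (181%). Markers of extraembryonic mesoderm were high too, summing to 1691 to 2198 CPM in enhΔ/Δ (5 of 10 rose) and 1444 to 2758 CPM in Δ/Δ (7 of 10 rose), compared with 904 to 1181 CPM in +/+. Heart muscle markers summed to 9.86 to 67.9 CPM in +/+ and to 45.7 to 156 CPM in Δ/Δ, where 5 of 6 rose against +/+. Against +/Δ, where these markers summed to 11.3 to 114 CPM, 2 of the 6 rose in Δ/Δ, and against enhΔ/Δ 0 did. Of all 18477 genes, 62 rose in enhΔ/Δ and 1035 in Δ/Δ against +/+. Of 3 macrophage markers measured, only Mrc1 fell in Δ/Δ by the test, from a mean of 102 CPM to 1.47 CPM, and it made up most of their sum (83.1 to 134 CPM in +/+ and 4.11 to 9.07 CPM in Δ/Δ). Csf1r stood at 2.52 CPM in +/+ and 4.96 CPM in Δ/Δ, and Ptprc at 2.68 and 0.0176 CPM. Mrc1 was at 137 CPM in enhΔ/Δ and is among the genes most correlated with Eng (r = 0.947). Over the 26 libraries without the null that r was 0.605. Whether the fall of Mrc1 came from macrophages or from other cells was not tested.

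**Figure D2:**
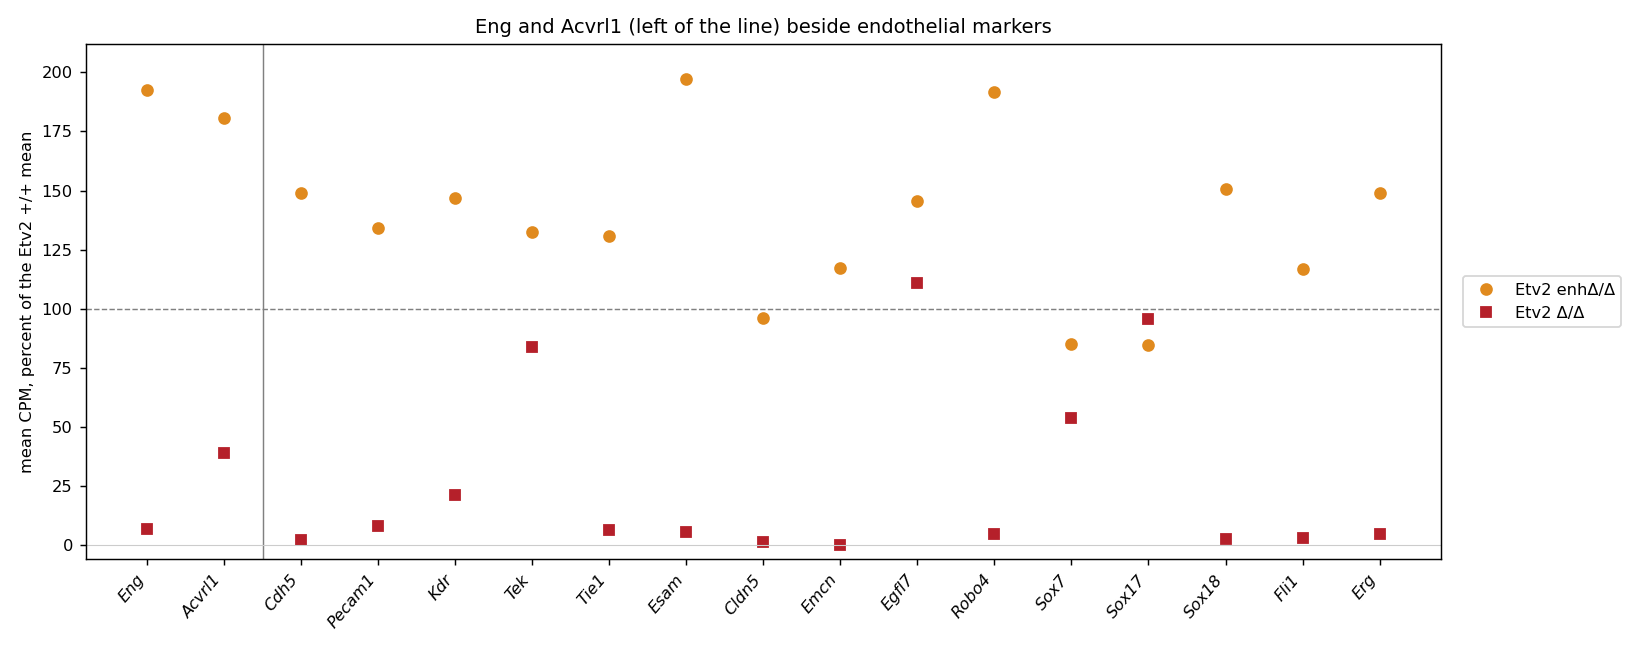
Mean CPM of Eng, Acvrl1 and 15 endothelial markers as a percentage of the +/+ mean, in enhΔ/Δ and Δ/Δ (n = 5 each). Each point is a genotype mean for 1 gene. In Δ/Δ, Eng (6.66%) sits with the 10 markers below 10%, Acvrl1 (39.2%) does not, and Egfl7 (111%) and Sox17 (95.6%) stay near 100%.

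The ligands varied less between genotypes than within them. Bmp4 (chr14:47003195-47010344, minus strand), which is needed to form mesoderm and blood, measured 41.0, 43.3, 48.1, 39.0, 40.2 and 53.8 CPM in +/+ and 43.5, 44.4, 65.3, 48.9 and 59.9 CPM in Δ/Δ. In enhΔ/Δ it ran from 17.6 to 68.8 CPM (median 44.6). The groups overlapped throughout, and the fitted difference of Δ/Δ from +/+ was 0.20 with an interval from -0.28 to 0.69. Of its exonic bases, 4.00% are shared with Gm15217 on the opposite strand.

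Bmp2 (chr2:133377895-133388621, plus strand), a ligand of the same subgroup, measured 31.6, 12.1, 31.4, 56.8, 27.7 and 28.4 CPM in +/+, a spread wider than that between any genotype means (24.5 to 31.3 CPM). In enhΔ/Δ it was at 20.7 to 44.6 CPM and in Δ/Δ at 10.2 to 45.8 CPM, and the fitted differences from +/+ were 0.00 (SE 0.31) and -0.20 (SE 0.31). Bmper, a secreted BMP-binding protein of endothelial cells that can promote or dampen signaling, was near the floor of detection. It had 40 reads over the 6 +/+ libraries, 22 of them in replicate 1, and 9 to 44 reads in the other genotypes. All groups overlapped +/+, and the fitted differences ran from -0.45 (SE 0.31) in enhΔ/Δ to 0.07 (SE 0.32) in Δ/Δ. They moved to -1.57 and -1.03 with Ftl2-ps level in the fit.

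Among the intracellular genes, Smad1 (chr8:81862294-81923417, minus strand), the receptor-activated Smad of BMP signaling, was steady in +/+ at 49.5, 46.0, 42.2, 44.1, 50.2 and 41.4 CPM. In +/Δ it was 51.3, 60.3, 77.5, 51.8, 55.7 and 55.8 CPM, above every +/+ library. A share of 0.249% of all genes separated these groups without overlap in either direction, 46 genes of 18477. The difference of 0.34 (SE 0.14, unadjusted p = 0.0241) did not pass the test across all genes (adjusted p = 0.802 by limma, 0.673 to 1 over the alternatives), and was 0.23 without the 4 libraries whose Xist goes against their label, 2 of which are +/Δ.

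Smad1 had the same fitted difference in enhΔ/Δ, 0.34 (SE 0.15), with libraries at 56.6, 60.8, 66.1, 61.2 and 48.0 CPM, of which 1 lay within the +/+ range. In Δ/Δ it was back at the +/+ level, with a difference of -0.04 (SE 0.16) and libraries at 37.8, 52.0, 38.2, 54.4 and 43.4 CPM. Δ/Δ was 0.38 lower than enhΔ/Δ (SE 0.16), and these groups overlapped at 48.0 to 54.4 CPM. In +/enhΔ and enhΔ/enhΔ the mean levels were 48.0 and 48.7 CPM, against 45.6 CPM in +/+.

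Smad6 and Smad7 are the inhibitory Smads, and Smad6 acts mainly on BMP receptors. Smad6 (chr9:63800953-63869866, minus strand) measured 8.52 to 11.0 CPM in +/+ and 34.1, 10.0, 12.5, 12.7, 14.5 and 15.0 CPM in +/Δ, where its difference of 0.61 (SE 0.23, unadjusted p = 0.0131, adjusted p = 0.788, limma) did not pass. Without +/Δ replicate 1, at 34.1 CPM, the difference was 0.38, and it was 0.28 with Ftl2-ps level in the fit. In enhΔ/Δ (8.93 to 13.3 CPM) and Δ/Δ (8.54 to 22.0 CPM) Smad6 overlapped +/+.

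Smad7 (chr18:75527183-75555589, plus strand), which acts on both BMP and TGF-β receptors, was the 1 gene of the set that lay higher in every null library than in +/+. It measured 15.7, 14.1, 10.1, 11.1, 12.0 and 14.1 CPM in +/+, 11.2, 10.8, 7.91, 16.6 and 15.1 CPM in enhΔ/Δ and 17.0, 18.4, 16.5, 21.7 and 29.5 CPM in Δ/Δ. Every Δ/Δ library lay above every +/+ library, while Δ/Δ and enhΔ/Δ overlapped between 16.5 and 16.6 CPM. The fitted differences of Δ/Δ were 0.63 (SE 0.28) against +/+, 0.71 (SE 0.28) against enhΔ/Δ and 0.67 (SE 0.27) against +/Δ. The first of these was 0.38 with Ftl2-ps level in the fit. The null was not alone in reaching such levels, since +/enhΔ libraries reached 30.7 CPM and enhΔ/enhΔ libraries 25.5 CPM.

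The target genes Id1 and Id3 did not follow the fall of Eng in the null. Id1 (chr2:152561987-152563146, plus strand) measured 49.1, 69.0, 67.7, 37.0, 39.3 and 43.1 CPM in +/+, 58.2, 64.5, 77.7, 60.6 and 62.3 CPM in enhΔ/Δ and 56.3, 51.8, 55.7, 56.9 and 65.0 CPM in Δ/Δ. The null lay inside the +/+ range, with a difference of 0.21 (SE 0.17). In enhΔ/Δ 4 libraries lay within that range and 1, at 77.7 CPM, above it, with a difference of 0.38 (SE 0.17). Id3 (chr4:135699412-135701670, plus strand) measured 60.3, 102, 81.3, 104, 77.3 and 86.0 CPM in +/+ and 74.4, 65.5, 51.0, 87.2 and 113 CPM in Δ/Δ, a difference of -0.19 (SE 0.15). In enhΔ/Δ, Id3 ran from 71.3 to 98.1 CPM, a difference of 0.02 (SE 0.15) with an interval from -0.28 to 0.32. Between the null and enhΔ/Δ the Id1 difference was -0.17 (interval -0.52 to 0.19) and that of Id3 was -0.21 (interval -0.52 to 0.11), whereas Eng differed there by -3.73.

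**Figure D3:**
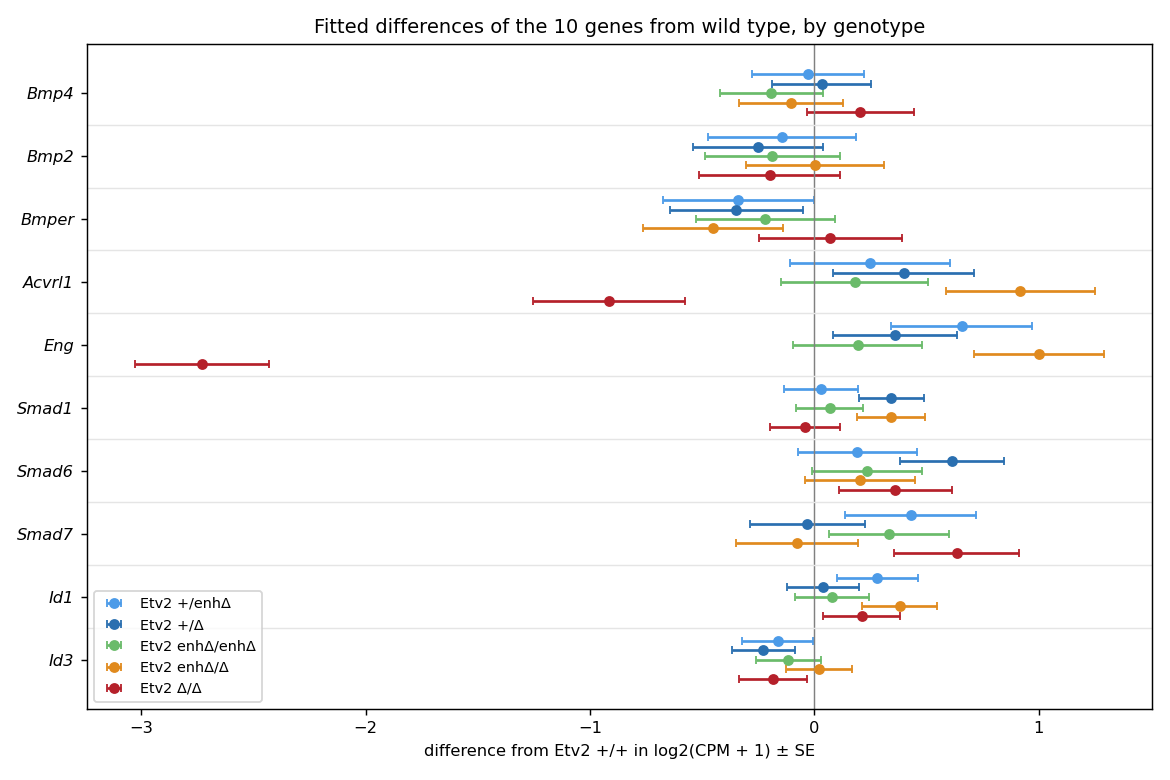
Fitted log2 differences from +/+ of the 10 genes in the 5 other genotypes. The horizontal axis is the log2(CPM + 1) difference, points are estimates of the limma fit and bars are ± SE. Eng spans the widest range, from -2.73 in Δ/Δ to 1.00 in enhΔ/Δ, Acvrl1 runs from -0.92 to 0.92, and Smad7 lies highest in Δ/Δ at 0.63.

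Counted together, 0 of the 10 genes passed an adjusted p of 0.05 in +/enhΔ, +/Δ or enhΔ/enhΔ against +/+, where 0.00%, 0.0271% and 0.0216% of all genes did. At an unadjusted p under 0.05 the counts were 1 (Eng), 2 (Smad1 and Smad6) and 0, beside 821, 1069 and 1320 of all 18477 genes. With limma-voom on recovered reads 0 of the 10 genes were called in each. The comparisons with enhΔ/Δ or Δ/Δ chose the set, so no genes are counted as passing there.

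Separation without any overlap is given as a description for those comparisons, with the share of all genes that separated beside it. It was seen for Eng and Smad7 in Δ/Δ against +/+ (7.00% of all genes), for Eng and Acvrl1 in Δ/Δ against enhΔ/Δ (5.47%) and against +/Δ (6.58%), and for Eng in enhΔ/Δ against +/Δ (3.21%). None of the 10 separated enhΔ/Δ (3.42%), +/enhΔ (0.736%) or enhΔ/enhΔ (0.687%) from +/+. The median log2 difference over the 10 genes was 0.02 in Δ/Δ and 0.11 in enhΔ/Δ against +/+, compared with -0.01 and 0.01 over all genes.

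The wider pathway was read from a list of 66 further genes, of which 57 were in the table, and these were tested in all 8 comparisons. This list too was chosen with earlier results of these libraries known. In the 3 milder genotypes 0 of the 57 were called, and 0 with limma-voom. At an unadjusted p under 0.05 the counts were 6, 2 and 8, beside 821, 1069 and 1320 of all 18477 genes. In enhΔ/Δ against +/+ 2 rose and 0 fell, a share of 3.51% beside 1.33% of all genes. Among the 12295 genes averaging at least 1 on the log2 scale, 276 were called. Tgfbr3, which encodes betaglycan, a co-receptor related to endoglin, went from 148 to 198 CPM in +/+ to 238 to 270 CPM in enhΔ/Δ, without overlap (log2 difference 0.58, SE 0.12, adjusted p = 0.00463, limma). Fstl1, a secreted follistatin-like protein, went from a mean of 66.3 to 101 CPM (0.65, SE 0.15, adjusted p = 0.0157, limma), and it was also the 1 gene of the list that rose against +/Δ (0.64, adjusted p = 0.0204, limma), a share of 1.75% beside 1.24% of all genes. With Ftl2-ps level in the fit neither rise against +/+ was called, and the rise of Fstl1 against +/Δ was not called without the 4 libraries whose Xist goes against their label.

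In Δ/Δ against +/+ 15 of the 57 were called, a share of 26.3% beside the background of 13.3%, with 11 higher and 4 lower. That background counts every gene of the table, however low. Among the 12295 genes averaging at least 1 on the log2 scale, 2532 were called, a larger share. By class the 15 were 2 higher and 2 lower of 11 ligands, 3 and 0 of 10 receptors, 3 and 1 of 16 antagonists and modulators, 2 and 0 of 11 Smads and their regulators, and 1 and 1 of 9 targets. Tgfbr3 rose again (246 to 342 CPM, log2 difference 0.75, adjusted p = 3.6e-05, limma). Smad9, which like Smad1 is activated by BMP receptors, rose from a mean of 63.7 to 93.5 CPM (0.50, adjusted p = 0.0100), and Bmpr1a, a type I receptor outside the endothelial pair, from 240 to 321 CPM (0.39, adjusted p = 0.0125).

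The genes that fell in Δ/Δ were fewer. Tgfb1, a ligand that signals through ALK5 and in endothelium also ALK1, stood at 5.68 to 17.5 CPM in +/+ and at 0.606 to 10.7 CPM in Δ/Δ (-1.59, SE 0.33, adjusted p = 0.000938, limma). Tll1, a tolloid-like protease that cleaves the BMP antagonist chordin, had a mean of 1.84 CPM in +/+ and 0 reads in all 5 Δ/Δ libraries (adjusted p = 0.0231). Bmp7 fell from a mean of 28.0 to 17.8 CPM (-0.63, adjusted p = 0.0328). Tmem100, an endothelial gene known as a target of BMP9 and BMP10 acting through ALK1, passed as well (adjusted p = 0.0430), but its +/+ values ran from 0 to 20.9 CPM with a median of 0.821 CPM, and its Δ/Δ values from 0 to 0.411 CPM.

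Against enhΔ/Δ the null had 4 of the 57 higher and 3 lower, a share of 12.3% beside 4.90% of all genes. Among the 12295 genes averaging at least 1 on the log2 scale, 980 were called. Smad9 (0.54), Bmpr1a (0.38), Bmp5 (1.06, from a mean of 14.4 to 30.7 CPM) and Twsg1, a chordin-binding modulator (0.45), rose, with adjusted p of 0.0129 to 0.0404 by limma. Tgfb1 (-1.54), Tll1 and Skil, a repressor of Smad-driven transcription (-0.73), fell. Against +/Δ, 8 rose and 4 fell, a share of 21.1% beside 13.4% of all genes (2612 of the same 12295). Among the calls were Smad9 (0.74), Tgfbr3 (0.59) and Id2 (0.45) upward, and Tgfb1 (-1.74), Tll1, Skil (-0.74) and Bmp6 (-0.56) downward. The median of the 57 was 0.24 in Δ/Δ against +/+, where that of all genes was -0.01, and 0.08 in enhΔ/Δ, where that of all genes was 0.01. Of the 15 calls in Δ/Δ against +/+, 3 remained once the fit included Ftl2-ps level, those of Tgfbr3 and Tgfb1 among them, 7 of the 15 remained without the 4 libraries whose Xist goes against their label, and 6 genes of the list were called without +/+ replicate 2. Over all 18477 genes the 2455 calls became 886 with Ftl2-ps level in the fit and 1670 without the 4 libraries. The calls against +/Δ and enhΔ/Δ, groups that are all low in Ftl2-ps, were the same genes with the Ftl2-ps term.

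**Figure D4:**
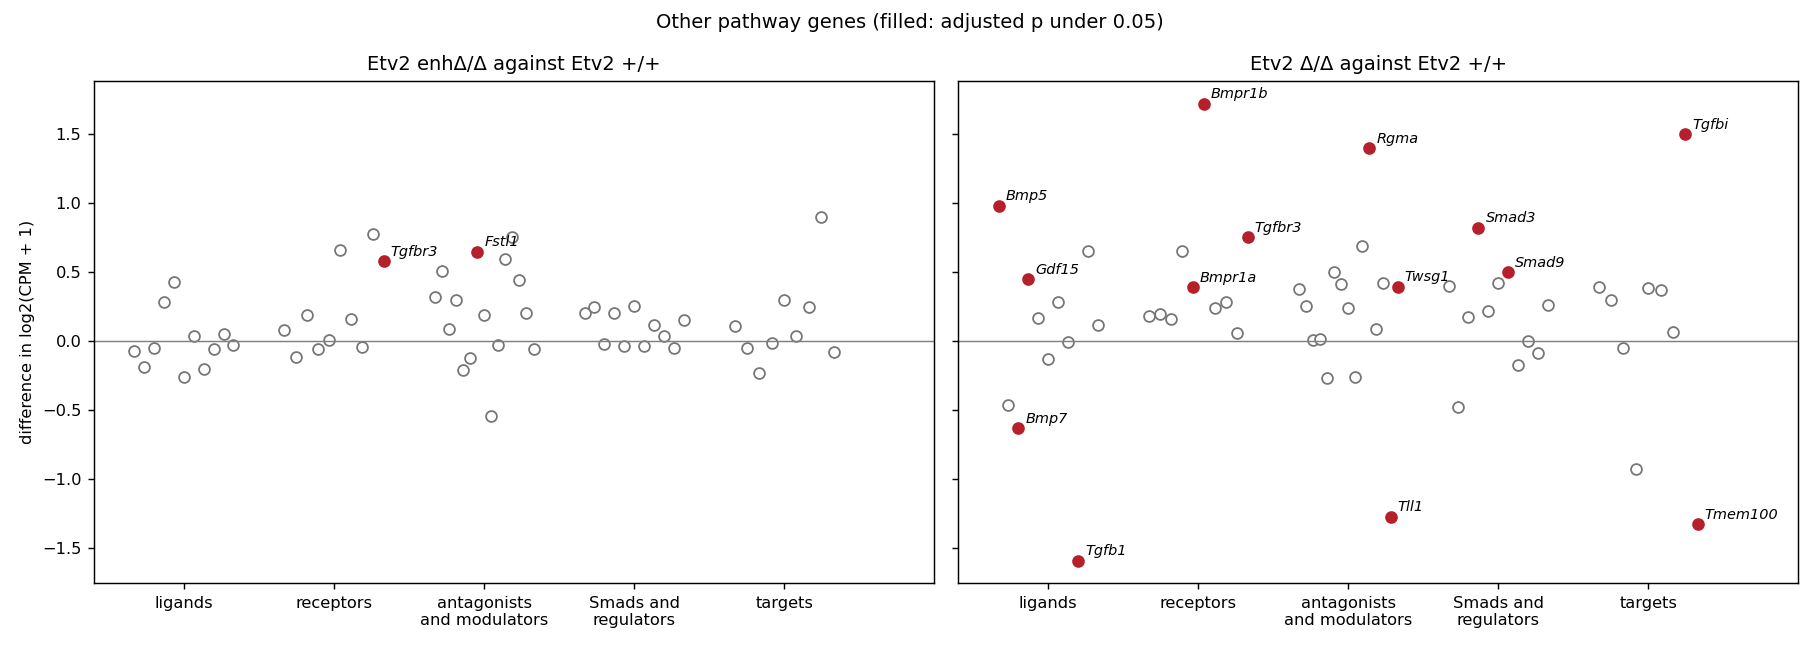
Fitted log2 differences from +/+ of 56 of the 57 other pathway genes in enhΔ/Δ and Δ/Δ, grouped by role. The vertical axis is the log2(CPM + 1) difference, each point is 1 gene placed by its role along the horizontal axis, and filled points passed an adjusted p of 0.05 (limma). In enhΔ/Δ only Tgfbr3 and Fstl1 are filled, and in Δ/Δ 10 filled points lie above 0 and 4 below.

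Ranked by Pearson correlation with Eng over the 31 libraries, among 10393 genes with a mean log2 value of at least 2, the nearest 5 genes were Stab2 (r = 0.948), Mrc1 (0.947), Plvap (0.938), She (0.934) and Lyve1 (0.934). The 5 null libraries carry much of this: over the other 26 libraries the same genes had r of 0.742, 0.605, 0.658, 0.564 and 0.710. The libraries share the genotype groups and the scaling, so these values only describe likeness. Acvrl1 came at rank 210 (r = 0.710, and 0.525 without the null). The other members of the set ranked far lower over the 31 libraries, from Smad1 at 2428 (r = 0.312) and Id3 at 2867 to Bmp4 at 8705 (-0.307) and Smad7 at 9420 (-0.399), and Bmper was too low to be ranked. Without the null, r was 0.390 for Id3, 0.303 for Id1, 0.236 for Smad1 and 0.139 for Bmp2. It was -0.162 for Smad7, -0.172 for Smad6 and -0.193 for Bmp4.

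For Id1 the nearest 5 genes were Cog4 (r = 0.718), Mrpl14 (0.686), Eva1b (0.672), Pfdn5 (0.663) and Tpx2 (0.658), all weaker than those of Eng and none of them a gene of the pathway list. Without the null libraries these rose slightly, to between 0.709 and 0.751. Eng stood at rank 4760 in the list of Id1 and Id3 at 1308.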

How the data were processed

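Single yolk sacs of 31 embryos were sequenced by the authors, with Trio RNA-seq libraries and a HiSeq instrument. Per the study's methods and the submitters' processing notes, reads were trimmed with fastq-mcf, aligned to mm9 with STAR 2.5.2a and counted on Ensembl genes with featureCounts of Subread, and the counts were scaled with edgeR. The deposited values are log2(CPM + 1), and the authors' table also holds columns of their own comparisons (fold change, likelihood ratio, p and FDR), which were not used. Undoing the log and dividing by the smallest step gave whole reads for 100% of the values (within 0.01 reads), so CPM and reads were recovered from the deposited log2 values.

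The labelled genotype set the groups. The fit was made in limma 3.58.1 under R 4.3.3 (trend, moderated variances) on the deposited values, with genotype and labelled sex as terms, all 31 libraries (24 residual degrees of freedom) and no filter. Adjustment followed Benjamini and Hochberg over 18477 genes, with calls at 0.05. The study's model had a batch term, but the labels give no batch, so none was fitted. Each library is 1 yolk sac, and p-values measure the spread between yolk sacs; litters are not given in the labels. CPM means are given ± SD, fitted differences with SE, and the interval of a read sum is an exact Poisson interval that covers counting error only. No 2 libraries of the same genotype agreed within sampling noise.

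The 10 genes, the pathway and marker lists and the naming rule were chosen with earlier results of these data known. Genes named were the 10, up to 4 pathway genes per direction and comparison by smallest adjusted p, and the 5 most correlated with Eng and with Id1 among genes averaging 2 or more on the log2 scale. Of the listed symbols, Bmp10, Gdf3, Inhbb, Acvr1c, Grem1, Hfe2, Cer1, Nbl1, Ctgf, Nkx2-5, Nppa, Fcgr1, Cx3cr1, Adgre1, Sox1, Sox3 and Neurod1 had no matching row and were not analysed here, and 1 gene of the pathway list enters the counts but is not reported here. Of the marker lists not described in the results, visceral endoderm markers summed to 38097 to 47177 CPM in +/+ and 36390 to 63821 CPM in Δ/Δ, trophoblast markers to 116 to 198 CPM in +/+ and 178 to 389 CPM in Δ/Δ, and neural ectoderm markers to at most 2.89 CPM in any library. The trophoblast sum (means of 157 and 273 CPM) was nearly all Hand1 (153 and 267 CPM). Hand1 is also in the extraembryonic mesoderm list, so this sum does not measure trophoblast. Positions of genes are on mm9 and those of promoters on GRCm38.p6.

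In 20 simulations of reads for 18477 genes, the fit recovered 92% to 100% of 4-fold changes (median 100%) and 26% to 56% of 2-fold changes (median 39%) for Δ/Δ against +/+, with 6 to 14 false calls. For +/Δ against +/+ it recovered 96% to 100% (median 100%) and 34% to 72% (median 50%), with 4 to 16 false calls. Changes were placed only in genes above a set mean level, which Bmper does not reach. All genes were given the same spread beyond counting error, so the rates do not hold for genes that vary more. The alternatives were no sex term, sex read from Xist, a replicate block, Ftl2-ps level in the fit, a filter at an average log2 of 1, quantile normalization, log2(CPM + 0.25), only the 2 groups compared, voom on recovered reads, leaving out the 4 libraries whose Xist goes against their label, and leaving out each library in turn. Python 3.11.15 with pandas 2.3.3, scipy 1.17.1 and matplotlib 3.10.9 was used for the rest.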

Additional observations from a re-analysis of the deposited data

Results flagged for a closer look

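Smad6 in +/Δ replicate 1 stood far from the other yolk sacs of its genotype, at 34.1 CPM (748 reads), with the next highest library at 15.0 CPM. On the log2(CPM + 1) scale, which was used for this check, the gap was 0.679 of the group's whole range, past Dixon's limit for a group of 6 samples. Of the 60 gene and genotype groups looked at, 1 was picked out in this way, and chance alone picks out about 1 group in 20.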

How the results depend on the processing

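The fitted differences of Eng and Acvrl1 from +/+ kept their direction in enhΔ/Δ and in Δ/Δ under every alternative run. The median difference of the 10 genes from +/+ ran from 0.06 to 0.25 in enhΔ/Δ and from -0.08 to 0.13 in Δ/Δ. With Ftl2-ps level in the fit, Id3 in Δ/Δ went from -0.19 to 0.04, Bmp2 in Δ/Δ from -0.20 to -0.51, and Smad1 in +/Δ and in enhΔ/Δ from 0.34 to 0.51. In the 3 milder genotypes 0 of the 10 genes passed under every alternative run. For the 57 other pathway genes, with Ftl2-ps level in the fit the count in enhΔ/Δ against +/+ went from 2 to 0 (1 to 3 over left-out libraries) and that in Δ/Δ against +/+ from 15 to 3. All genes called went from 245 to 81 and from 2455 to 886 of 18477. The count of 15 was 8 with only the 2 groups compared (1394 of all genes) and 8 without the 4 libraries whose Xist goes against the label (1670 of all genes). It was 6 (without +/+ replicate 2) to 17 over left-out libraries. In Δ/Δ against enhΔ/Δ the count of 7 became 4 with only the 2 groups compared and 1 (without enhΔ/Δ replicate 4) to 8 over left-out libraries. All genes called went from 906 to 513 with only the 2 groups compared. In enhΔ/Δ against +/Δ the count of 1 became 3 with a filter at an average log2 of 1, 2 with quantile normalization, 0 with only the 2 groups compared, 0 without the 4 libraries, and 0 to 3 over left-out libraries. All genes called there went from 230 to 355 of 12295 with the filter. They went to 259, 281 and 56 of 18477 in the next settings, in that order. In Δ/Δ against +/Δ the count of 12 became 5 with only the 2 groups compared and 8 to 16 over left-out libraries. All genes called went from 2484 to 1465 with only the 2 groups compared. With only the groups compared fewer samples enter the fit; otherwise the cause was not tested.

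The replicate numbers do not pair the samples: over 71 pairs of libraries with the same number in different genotypes, deviations from the genotype mean had correlations of -0.172 to 0.187 (median -0.00989), and 3 of 31 libraries were closest to one of their own number. With the replicate number as a block, the count of other pathway genes was 9 in Δ/Δ against +/+ (8 of them among the 15) and 4 in Δ/Δ against enhΔ/Δ, and the other counts stayed within 1.5 times. All genes called with the block were 2142 in Δ/Δ against +/+ and 775 in Δ/Δ against enhΔ/Δ.

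Depth limits Bmper, with 9 to 44 reads summed per genotype, and Eng in the null, with 47 reads. Of 2-fold changes simulated in +/Δ, in genes above the level of Bmper and with the same spread for all, 34% to 72% were recovered over 20 simulations.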
